A study of Rattus norvegicus with 12 samples.

Results

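Dystrophin anchors the actin cytoskeleton of a muscle fibre to a complex in its membrane, and that complex binds laminin in the basement membrane outside the fibre. The genes described here encode 8 proteins of this dystrophin-glycoprotein complex: dystrophin (Dmd), its paralog utrophin (Utrn), dystroglycan (Dag1), the alpha-, beta- and delta-sarcoglycans (Sgca, Sgcb and Sgcd), alpha-dystrobrevin (Dtna) and sarcospan (Sspn). They were chosen by symbol, with no measured value in the rule, although earlier results of these data were known. Each of the 8 symbols had 1 row among the 24648 rows of the deposited table of raw counts. All 8 passed the filter on low counts, which kept 14225 rows.

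The libraries were made from skeletal muscle of male rats on postnatal day 540, and all of the animals were offspring of dams on 1 of 2 diets. Restriction libraries came from offspring of dams fed 6% protein through pregnancy and lactation, and control libraries from offspring of dams on a control diet. The numbers in the titles put the libraries in 2 sets of 6. Set 2 held restriction libraries 32, 33 and 35 and control libraries 23, 28 and 29, and set 1 held restriction libraries 12, 13 and 15 and control libraries 3, 8 and 9. Soleus and extensor digitorum longus are the muscles the series text names, but no label ties either to a library. Markers split the sets, since 9 of 9 fast-fibre genes were higher and 8 of 8 slow-fibre genes lower in set 2. Myh4, the fast type IIB heavy chain, ran from 11042 to 47519 CPM (counts scaled to a common library total after TMM adjustment) in set 2, against 4.97 to 396 in set 1. The 396 CPM was control 3 alone, and the highest of the other set 1 libraries was control 8, at 19.5 CPM. Myh7, the slow myosin heavy chain, ran from 702 to 2589 CPM in set 2 and from 31172 to 38338 CPM in set 1. The labels give no strain, dam, litter or animal for a library. P-values therefore reflect only how far these 12 libraries scatter, some of it possibly from handling, and littermates or 2 muscles of 1 animal cannot be told apart from separate animals. Total counts per library ran from 22829692 to 38313704, and the members had from 147 counts (Sgcd in restriction 13) to 11677 counts (Dag1 in control 9) in a library. Control 23 had a TMM factor of 0.815, against 0.968 to 1.10 in the other libraries.

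In a healthy fibre the complex spreads the force of contraction to the matrix and keeps the membrane from tearing. Beta-dystroglycan spans the membrane and binds dystrophin inside, while alpha-dystroglycan carries the sugar chains that hold laminin outside. The sarcoglycans and sarcospan form a subcomplex that steadies this link, and dystrobrevin and the syntrophins form a platform that docks neuronal nitric oxide synthase and other signalling proteins. Loss of dystrophin causes Duchenne muscular dystrophy and loss of a sarcoglycan causes limb-girdle dystrophies in people. Utrophin is concentrated at the neuromuscular junction of adult fibres. Counts per gene pool all transcripts of a gene, so the long and short forms of Dmd, Utrn and Dtna are not told apart here, and levels are not compared between genes because no transcript lengths were used.

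The comparison of set 2 with set 1 asked whether transcript levels of the complex's genes differed between muscle with fast and muscle with slow fibre markers. Proteins and the assembled complex were not measured. Only 2 of the 8 members passed the threshold, and they went opposite ways. Sgcb was 1.67-fold higher in set 2 and Dtna fell to 0.543 of its set 1 level, while Dmd, Dag1, Sgcd and Sspn had values near 0. Over all genes tested 39.5% were called in this comparison (19.9% higher and 19.6% lower), so 2 of 8 members is no more than the share in the whole table. How many of all genes had sets without overlap was not counted, so a lack of overlap below only describes the gene named. DESeq2 called 3 of the 8, beside 42.7% of all genes.

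**Figure D1:**
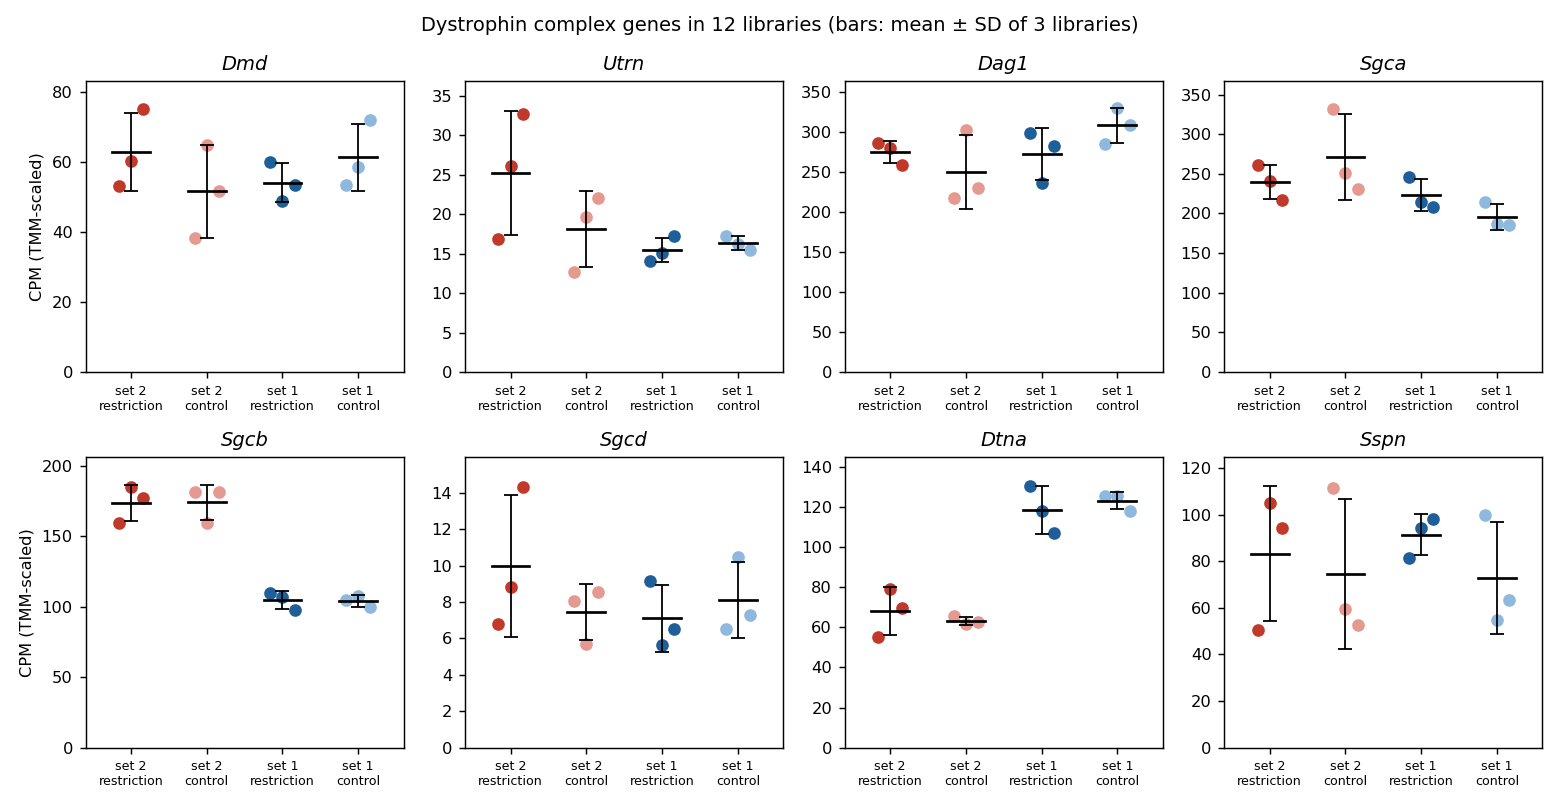
Level of each of the 8 members in CPM (vertical axes, linear from 0) in the 12 libraries, grouped on the horizontal axis by set and diet. Points are libraries and bars are the mean ± SD of 3. Sgcb is higher in all 6 set 2 libraries than in all 6 set 1 libraries, Dtna is lower in all 6, and the libraries of the other 6 genes overlap between sets. How many of all genes separate in this way was not counted.

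Sgcb encodes beta-sarcoglycan, a core subunit without which the other sarcoglycans do not reach the membrane. Its level was 159.5, 185 and 177 CPM in set 2 restriction libraries and 181, 159 and 181 CPM in set 2 controls, against 109.7, 107 and 97.5 CPM in set 1 restriction libraries and 105, 107 and 99.7 CPM in set 1 controls. Every set 2 library lay above every set 1 library. The log2 fold change was 0.74 ± 0.09 (SE, 95% interval 0.54 to 0.93, edgeR's quasi-likelihood test, Benjamini-Hochberg adjusted p = 2.61e-05). It was 0.73 in restriction libraries and 0.74 in controls, and leaving out 1 library at a time gave 0.71 to 0.78 with the call kept in 12 of 12 fits. Sgcb also had a small spread within groups, with an SD of log2 CPM of 0.09, against a median of 0.36 over all genes tested.

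Dtna encodes alpha-dystrobrevin, which binds dystrophin and the syntrophins. Its level was 55.3, 79.0 and 69.5 CPM in set 2 restriction libraries and 65.5, 61.4 and 62.9 CPM in set 2 controls, against 130.4, 118 and 107 CPM in set 1 restriction libraries and 126, 125 and 118 CPM in set 1 controls. No library of set 2 reached the level of any library of set 1. The log2 fold change was -0.88 ± 0.11 (SE, 95% interval -1.11 to -0.65, edgeR adjusted p = 1.86e-05). It was -0.80 in restriction libraries and -0.96 in controls, with -0.94 to -0.80 when 1 library was left out and the call kept in 12 of 12 fits.

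Utrn and Sgca missed the threshold narrowly. Utrn measured 16.9, 26.1 and 32.6 CPM in set 2 restriction libraries and 12.7, 19.7 and 22.0 CPM in set 2 controls, against 14.1, 15.1 and 17.2 CPM in set 1 restriction libraries and 17.3, 16.2 and 15.5 CPM in set 1 controls. Control 23 was the lowest of the 12 libraries and restriction 35 the highest, so the sets overlapped. The log2 fold change was 0.43 ± 0.17 (SE, interval 0.07 to 0.79, edgeR adjusted p = 0.057). DESeq2 called it (adjusted p = 0.048), and so did edgeR without control 23 or without restriction 32. In restriction libraries alone the value was 0.71 (edgeR adjusted p = 0.039), and in controls alone it was 0.15 (edgeR adjusted p = 0.71). The difference between these values is the diet-by-set term given further on, which was not called.

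Sgca, the alpha-sarcoglycan that is largely restricted to striated muscle, measured 261, 241 and 217 CPM in set 2 restriction libraries and 332, 251 and 231 CPM in set 2 controls, against 247, 214 and 209 CPM in set 1 restriction libraries and 215, 187 and 186 CPM in set 1 controls. The control groups did not overlap and the restriction groups did. The log2 fold change was 0.29 ± 0.11 (SE, interval 0.04 to 0.53, edgeR adjusted p = 0.058). It was 0.10 in restriction libraries and 0.47 in controls, and 0.19 without control 23, the highest library. Without control 3 or without control 29 it was called (0.33 and 0.34).

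For Dmd the sets did not separate. Dystrophin transcripts measured 53.2, 60.2 and 75.1 CPM in set 2 restriction libraries and 38.2, 64.9 and 51.7 CPM in set 2 controls, against 60.0, 48.8 and 53.6 CPM in set 1 restriction libraries and 53.4, 58.5 and 72.0 CPM in set 1 controls. The log2 fold change was -0.02 ± 0.14 (SE), with a 95% interval of -0.32 to 0.29. That interval is for the difference between the sets averaged over the diets and does not bound the difference within 1 diet. The value was -0.14 for Dag1 (interval -0.38 to 0.09), 0.18 for Sgcd (interval -0.28 to 0.65) and -0.05 for Sspn (interval -0.52 to 0.42). Sgcd, with 5.64 to 14.3 CPM over the 12 libraries, was the member with the fewest counts.

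RefSeq promoter windows, which run from 250 bases before to 50 bases after an annotated start on the rat build GRCr8, were matched by symbol for 7 of the 8 members. There were 9 windows in all, 3 of them for Dmd, and Dag1 had no entry. The windows of Sgcb and Dtna are shown as those of the members that passed in opposite directions, and that of Sgca as a striated muscle gene that did not. They lie at chr14:34917413-34917712 on the plus strand for Sgcb, chr18:14961785-14962084 on the plus strand for Dtna and chr10:80416026-80416325 on the minus strand for Sgca. Capitals mark matches on either strand to CAGCTG (a form of the E-box read by myogenic factors), CATTCC (the M-CAT element) and GGGCGG (a GC box).
Sgcb: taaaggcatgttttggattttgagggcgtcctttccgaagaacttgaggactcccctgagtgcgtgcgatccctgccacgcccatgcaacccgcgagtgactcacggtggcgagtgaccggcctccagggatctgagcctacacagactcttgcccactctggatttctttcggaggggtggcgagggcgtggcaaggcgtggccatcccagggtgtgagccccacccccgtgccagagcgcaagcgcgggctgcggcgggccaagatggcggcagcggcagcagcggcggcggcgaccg
Dtna: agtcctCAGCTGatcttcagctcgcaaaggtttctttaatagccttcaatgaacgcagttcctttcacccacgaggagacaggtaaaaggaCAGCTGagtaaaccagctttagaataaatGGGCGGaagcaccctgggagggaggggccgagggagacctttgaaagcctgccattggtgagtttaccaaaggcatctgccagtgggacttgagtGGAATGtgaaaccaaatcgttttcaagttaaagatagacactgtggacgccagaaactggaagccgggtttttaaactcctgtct
Sgca: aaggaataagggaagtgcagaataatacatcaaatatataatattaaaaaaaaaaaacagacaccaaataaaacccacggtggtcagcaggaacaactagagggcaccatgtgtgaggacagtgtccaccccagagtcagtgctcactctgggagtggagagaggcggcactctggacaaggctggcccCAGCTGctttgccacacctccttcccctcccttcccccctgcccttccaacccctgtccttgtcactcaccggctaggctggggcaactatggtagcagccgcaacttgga
The Sgcb window had none of the 3 motifs and a GC content of 66%, against a median of 51.7% over all 33469 RefSeq windows. The Dtna window, at 48.3% GC, held CAGCTG at -244 and -159 from the start, GGGCGG at -130 and CATTCC on the other strand at -35. The Sgca window held CAGCTG at -61. Of all windows 15.1% hold CAGCTG, 14.2% CATTCC and 33.1% GGGCGG, and 72.1% hold the general E-box CANNTG, which includes every CAGCTG. These matches describe the letters of 1 annotated start per shown gene and say nothing about which factors bind there.

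Ratios within a library do not depend on how libraries are scaled, so the counts of the other 7 members were set over those of Dmd. These ratios were chosen after the data were seen. The Sgcb to Dmd ratio was 2.81 ± 0.394 in set 2 restriction libraries and 3.57 ± 1.14 in set 2 controls, against 1.95 ± 0.213 in set 1 restriction libraries and 1.73 ± 0.305 in set 1 controls (SD, n = 3 each). The Dtna to Dmd ratio was 1.09 ± 0.199 in set 2 restriction libraries and 1.29 ± 0.389 in set 2 controls, against 2.20 ± 0.214 in set 1 restriction libraries and 2.04 ± 0.365 in set 1 controls. Both differed between the sets in a two-sided exact permutation test within diets over 400 regroupings, with an adjusted p = 0.035 over the 7 ratios. The log2 ratio differed by 0.77 for Sgcb (unadjusted p = 0.005, the smallest that these regroupings can give) and by -0.85 for Dtna (unadjusted p = 0.01). The call on the Sgcb ratio was lost without control 8 or control 9 (range of the difference over 12 fits 0.65 to 0.89), and that on the Dtna ratio without control 8, 9, 28 or 29 (range -0.97 to -0.75). Leaving out a library leaves fewer regroupings, so a lost call need not mean a smaller difference. No Sgcb ratio of set 2 reached down to set 1, whereas the Dtna ratio of control 23, at 1.71, was above that of control 9 in set 1, at 1.64. The Utrn to Dmd ratio differed by 0.42 and did not pass (exact permutation test, adjusted p = 0.058), and it passed without control 3 or without restriction 32. In control 23 the ratio of Sgca to Dmd was 8.69 and that of Sgcb to Dmd 4.73, each the highest of the 12 libraries. That library also had the fewest Dmd counts of the 12, at 713 (38.2 CPM). Its Sgcb level, 181 CPM, was no higher than that of control 29.

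**Figure D2:**
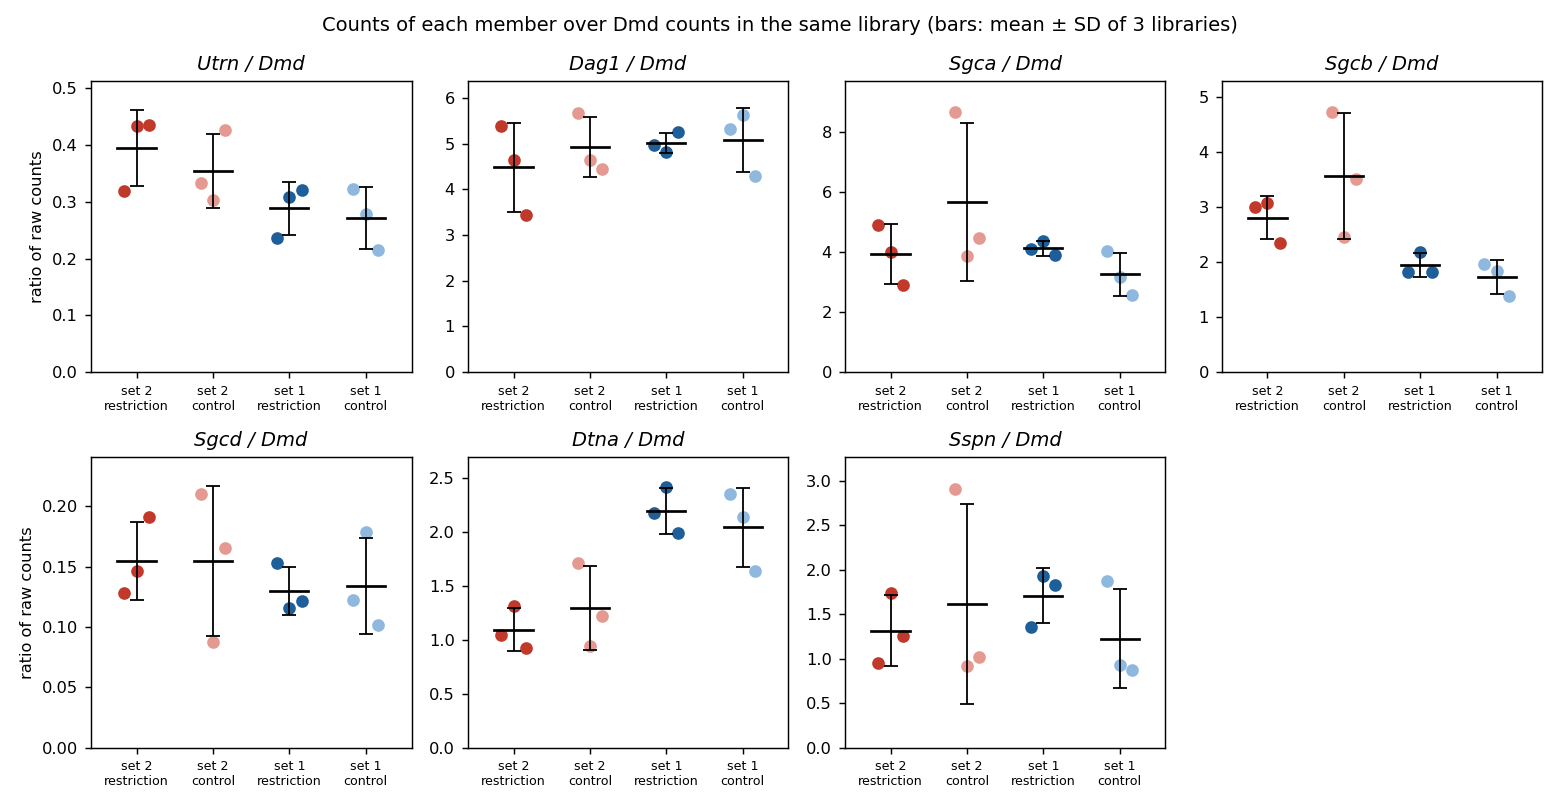
Raw counts of 7 members divided by the Dmd counts of the same library (vertical axes, linear from 0), by set and diet. Points are libraries and bars are the mean ± SD of 3. The Sgcb ratio is higher and the Dtna ratio lower in set 2, where control 23 (the highest set 2 control for both genes) lies apart, at 4.73 for Sgcb and 1.71 for Dtna. Control 23 has the fewest Dmd counts of the 12 libraries, at 713.

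Of 11 tested genes in a list of other subunits and direct partners, 4 were higher and 5 lower in set 2, beside 39.5% of all genes called in either direction. Their median log2 fold change was 0.16, against -0.0075 over all genes. Higher genes included a syntrophin and nitric oxide synthase. Nos1, neuronal nitric oxide synthase, measured 58.2, 33.6 and 28.8 CPM in set 2 restriction libraries and 16.4, 44.7 and 26.1 CPM in set 2 controls, against 2.26, 0.883 and 1.79 CPM in set 1 restriction libraries and 2.69, 2.92 and 2.83 CPM in set 1 controls. The lowest set 2 library was thus above the highest of set 1, and the log2 fold change, 3.99 ± 0.29 (SE), passed (edgeR adjusted p = 1.58e-07). Sntb1, beta-1-syntrophin, was higher by 3.84 ± 0.31 on the log2 scale, at 10.5 to 17.9 CPM in set 2 against 0.198 to 1.69 CPM in set 1. Drp2, a dystrophin-related protein studied mainly in Schwann cells, was higher by 1.20 ± 0.34.

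Both dystrobrevins were lower in set 2. Dtnb, beta-dystrobrevin, measured 1.03 to 3.04 CPM in set 2 and 6.10 to 9.71 CPM in set 1, without overlap, and its log2 fold change was -2.14 ± 0.26 (SE). Mast2, a kinase that binds syntrophin, was lower by -0.81 ± 0.11 and Cav3 (caveolin-3, a muscle membrane scaffold) by -0.61 ± 0.14. Sgce, the epsilon-sarcoglycan found in many tissues, was at -0.61 ± 0.21 (edgeR adjusted p = 0.035) and was called in 3 of 12 fits that left out 1 library, those without control 8, control 23 or restriction 35 (range -0.77 to -0.45). Sntb2 (95% interval -0.05 to 3.05), with at most 0.690 CPM and 0 counts in control 8, and Mapk12 (0.16 ± 0.11) did not pass, and Sntb2 passed without control 9, at 2.59. Sntg1, Sntg2 and Sgcz did not pass the filter on low counts. Of the sarcoglycans named here, Sgcb was thus higher in set 2, Sgce lower, and Sgca and Sgcd did not pass.

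**Figure D3:**
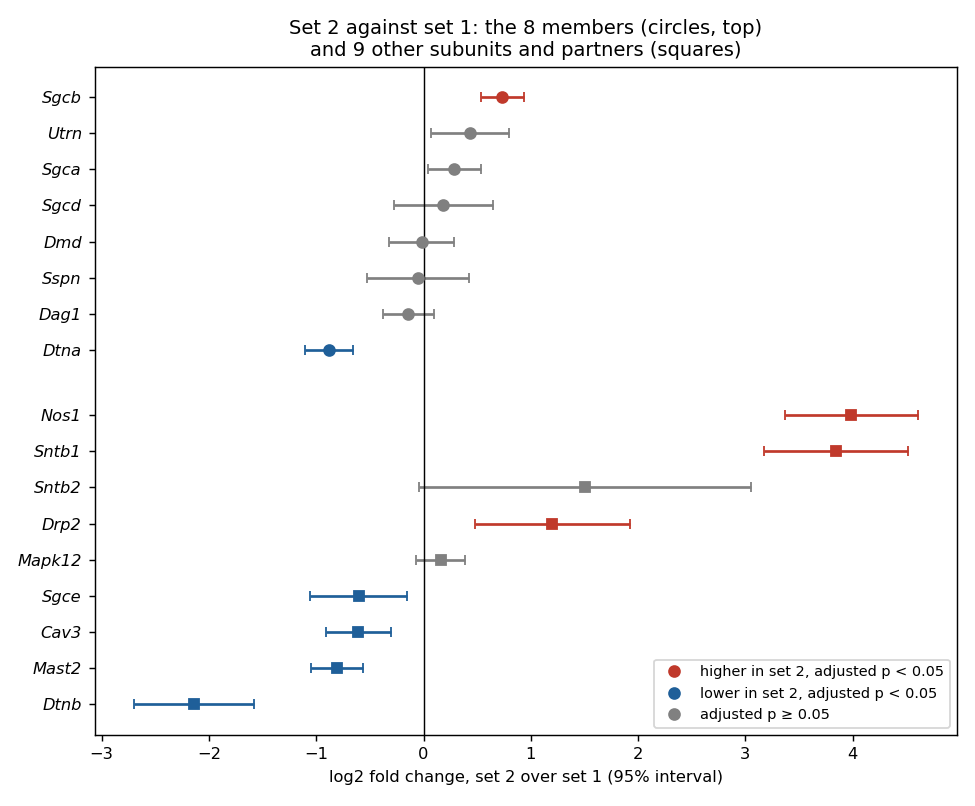
Log2 fold change of set 2 over set 1 (horizontal axis, points) with its 95% interval (bars) for the 8 members (circles) and 9 other subunits and partners (squares). Sgcb at 0.74 and Dtna at -0.88 stand away from 0 among the members, while Nos1 at 3.99, Sntb1 at 3.84 and Dtnb at -2.14 lie farther out among the partners.

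Outside the fibre, several ligands of dystroglycan were lower in set 2. Of 11 tested, 0 were higher and 5 lower in set 2, with a median of -0.29. Lama2, the laminin chain lost in a congenital dystrophy, measured 21.5, 29.5 and 36.1 CPM in set 2 restriction libraries and 27.2, 23.3 and 30.6 CPM in set 2 controls, against 56.8, 53.8 and 52.3 CPM in set 1 restriction libraries and 51.8, 51.0 and 54.6 CPM in set 1 controls. The sets did not overlap, and the log2 fold change, -0.93 ± 0.13 (SE), passed (edgeR adjusted p = 5.17e-05). Bgn, the proteoglycan biglycan, was lower by -2.30 ± 0.24, Lamb2 by -0.48 ± 0.10 and Lamc1 by -0.55 ± 0.11.

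Enzymes that build the laminin-binding sugar of dystroglycan were called both ways, 5 higher and 5 lower of 18 tested (median 0.10). Pomgnt1, a glycosyltransferase of the core sugar, was lower by -1.10 ± 0.11 (SE). Large2, which extends the laminin-binding chain, was higher by 2.14 ± 0.39, and Tmem5 (now called Rxylt1), a xylosyltransferase of the same pathway, by 1.00 ± 0.15. Large2 was scarce, at 1.21 to 3.70 CPM in set 2 and 0.203 to 0.653 CPM in set 1. Of 18 tested costamere and integrin genes 4 were higher and 4 lower (median 0.01). Synm, the intermediate filament protein synemin that binds dystrophin and dystrobrevin, was higher by 1.33 ± 0.10 and Ank2, an ankyrin that helps place dystrophin, by 0.99 ± 0.12. Lims1, an adaptor at integrin sites, was lower by -1.13 ± 0.11 and Itga7, the laminin-binding integrin chain of muscle, by -0.70 ± 0.12. These shares of called genes stand beside 39.5% over the whole table, and the lists were not tested as sets.

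**Figure D4:**
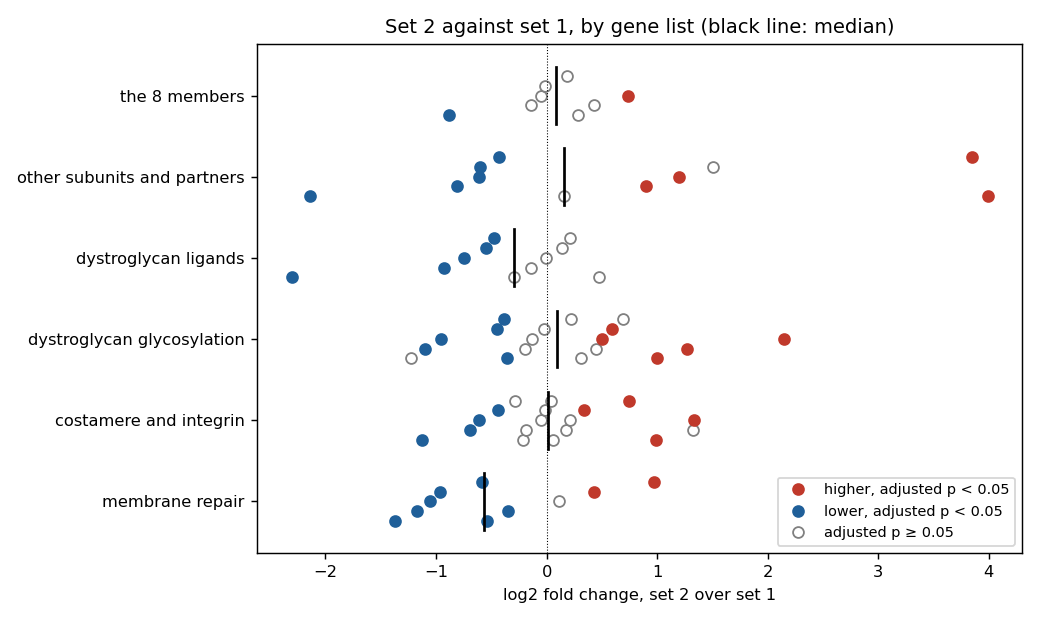
Log2 fold change of set 2 over set 1 (horizontal axis) for each tested gene of the 8 members and 5 companion lists, 1 point per gene, with small vertical offsets for legibility. Filled points passed the threshold and black lines are medians. The members span -0.88 to 0.74 and the other subunits and partners -2.14 to 3.99.

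Markers of other cells of the tissue were compared between the sets as well, beside 39.5% of all genes called (19.9% higher and 19.6% lower). Fibro-adipogenic progenitor markers were lower in 7 of 7 genes, with a summed level of 508 to 917 CPM in set 2 and 1258 to 1768 CPM in set 1. Macrophage markers were lower in 8 of 8 genes (52.2 to 103 CPM in set 2 and 190 to 472 CPM in set 1), and adipocyte markers in 4 of 5 genes (126 to 259 CPM in set 2 and 191 to 274 CPM in set 1). Most of the adipocyte sum was Fabp4, the gene not called, at 119 to 255 CPM over the 12 libraries. The called adipocyte genes were at 0.072 (Adipoq), 0.105 (Plin1), 0.141 (Cidec) and 0.200 (Lep) of their set 1 levels. Endothelial markers were higher in 3 of 8 genes and lower in 0 (266 to 393 CPM in set 2 and 208 to 303 CPM in set 1). Schwann cell markers were higher in 3 of 8 and lower in 1 (77.4 to 144 CPM in set 2 and 62.3 to 119 CPM in set 1), and smooth muscle markers were higher in 3 of 8 and lower in 3 (250.4 to 354 CPM in set 2 and 283 to 399 CPM in set 1). The endothelial count called is no more than the share over all genes, and the Schwann cell count is close to it. None of these lists was tested as a set. No marker was at 0 in every library. In bulk muscle, fewer cells of a type and less RNA per cell cannot be told apart, and the part of these cells in the values of Sgcb, Dtna and the partners was not tested.

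The study was built to ask what maternal protein restriction leaves behind in the muscle of aged offspring. None of the 8 members was called for the diet in edgeR, averaged over both sets, in set 2 or in set 1, and none had an unadjusted p under 0.05. DESeq2 called 0 of the 8 in each of these comparisons too. Over all genes edgeR called 0.00703% for the mean of both sets, 0% in set 2 and 0.00703% in set 1, so a count of 0 among 8 members is what the whole table shows. DESeq2 called 0.48% of genes for the mean, 0.287% in set 2 and 0.267% in set 1.

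Averaged over the sets, the narrowest intervals belonged to Sgcb and Dtna. Sgcb averaged 174 ± 12.9 CPM in set 2 restriction libraries and 174 ± 12.7 in set 2 controls, whereas set 1 had 105 ± 6.39 in restriction libraries and 104 ± 3.96 in controls (SD, n = 3 each). Its log2 fold change of restriction over control was 0.0038 ± 0.09 (SE, interval -0.19 to 0.20). Dtna averaged 68.0 ± 11.9 CPM in set 2 restriction libraries and 63.2 ± 2.08 in set 2 controls, whereas set 1 had 118 ± 11.8 in restriction libraries and 123 ± 4.22 in controls, for 0.02 ± 0.11 (interval -0.20 to 0.25). The intervals leave room for changes below about these sizes and do not show that the diets gave equal levels.

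Dmd averaged 62.8 ± 11.2 CPM in set 2 restriction libraries and 51.6 ± 13.3 in set 2 controls, whereas set 1 had 54.1 ± 5.65 in restriction libraries and 61.3 ± 9.62 in controls (SD, n = 3 each), a log2 difference with diet of 0.05 ± 0.14 (SE, interval -0.25 to 0.35). Dag1 averaged 275 ± 14.1 CPM in set 2 restriction libraries and 249.6 ± 45.6 in set 2 controls, whereas set 1 had 272 ± 32.7 in restriction libraries and 308 ± 22.3 in controls, for -0.02 ± 0.11 (interval -0.26 to 0.22). The values for Sgca were 0.0055 ± 0.11 (interval -0.24 to 0.25), for Sgcd 0.12 ± 0.22 (interval -0.34 to 0.58), for Utrn 0.20 ± 0.17 (interval -0.17 to 0.56) and for Sspn 0.25 ± 0.22 (interval -0.23 to 0.72). In each of these 6 genes restriction and control libraries overlapped in both sets.

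**Figure D5:**
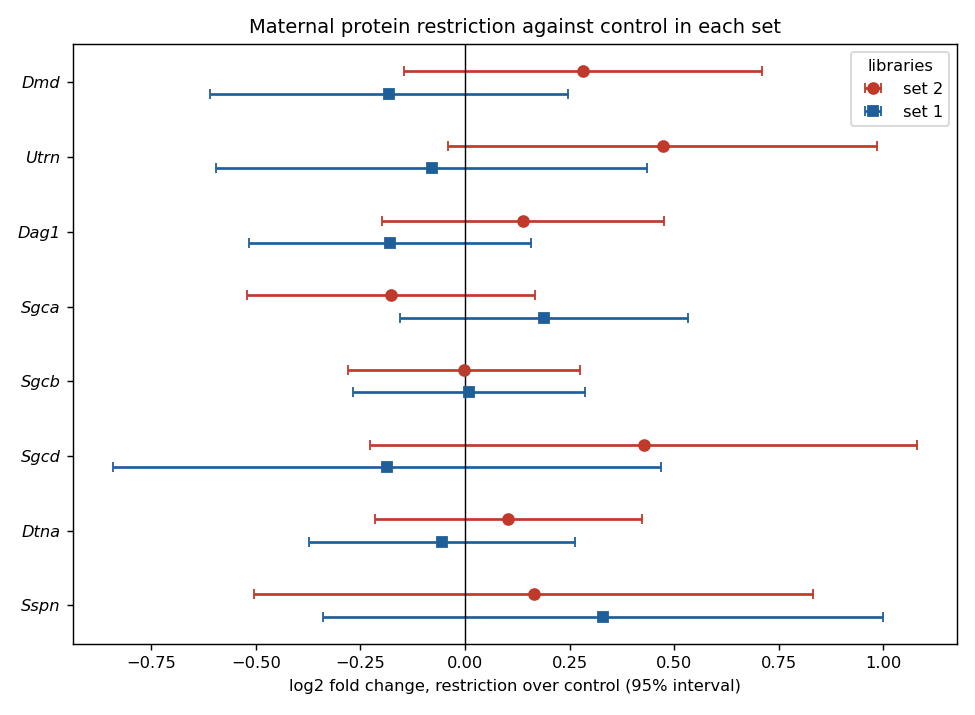
Log2 fold change of restriction over control (horizontal axis) in set 2 (circles, upper of each pair) and set 1 (squares) for the 8 members, with 95% intervals. Every interval spans 0, and the value for Utrn in set 2, 0.47, comes nearest to clearing it.

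Utrn in set 2 had the smallest unadjusted p of the 8 members in either set. It averaged 25.2 ± 7.90 CPM in set 2 restriction libraries and 18.1 ± 4.85 in set 2 controls (SD, n = 3 each), for a log2 fold change of 0.47 ± 0.24 (SE, interval -0.04 to 0.99, edgeR adjusted p = 0.59), and leaving out 1 library gave 0.25 (without restriction 35) to 0.69 (without restriction 32), not called in any of 12 fits. In set 1 it averaged 15.4 ± 1.56 CPM in restriction libraries and 16.3 ± 0.901 in controls, for -0.08 ± 0.24. Dmd, Utrn, Dag1, Sgcd and Dtna had positive values in set 2 and negative ones in set 1. The difference of the diet effect between the sets, set 2 minus set 1, was 0.55 ± 0.34 for Utrn, 0.46 ± 0.28 for Dmd, 0.32 ± 0.22 for Dag1 and 0.61 ± 0.43 for Sgcd. For Dtna it was 0.16 ± 0.21 and for Sgca -0.37 ± 0.23. This difference was above 0 in 5 of 8 members and in 7079 of 14225 genes. None of the 8 differences was called (edgeR adjusted p = 0.62 to 0.99, 0 of 8 with an unadjusted p under 0.05, DESeq2 0 of 8), beside 0% of all genes in edgeR and 0.211% in DESeq2. The 7 ratios to Dmd did not differ with diet either, each with an adjusted p = 0.9 in the exact permutation test within sets.

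The partner lists gave the same picture for diet. No gene was called among 11 other subunits and partners (median -0.07), 11 dystroglycan ligands (median 0.18), 18 glycosylation enzymes (median -0.08) and 18 costamere and integrin genes (median 0.02), averaged over both sets, and at an unadjusted p under 0.05 there were 1, 1, 0 and 1 of them. The 11 ligands all had values above 0, where 6857 of 14225 genes did, and no p is given for the list. Lamb2, a laminin chain of the synapse, had the smallest p of the 11 in set 2, where it measured 266, 248 and 301 CPM in restriction libraries and 200.03, 216 and 190.1 CPM in controls. Those groups did not overlap, but how many of all genes separate in this way was not counted. The log2 fold change of Lamb2 in set 2 was 0.43 ± 0.14 (SE, edgeR adjusted p = 0.50). In that comparison 1222 of 14225 genes had an unadjusted p under 0.05.

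Sspn varied most among the 8 members within groups, with an SD of log2 CPM of 0.47, against 0.09 for Sgcb and 0.36 for the median gene. Sarcospan, a small membrane-spanning protein that binds the sarcoglycans, measured 50.5, 105 and 94.3 CPM in set 2 restriction libraries and 111, 59.5 and 52.4 CPM in set 2 controls, against 81.4, 94.4 and 98.1 CPM in set 1 restriction libraries and 99.9, 54.6 and 63.3 CPM in set 1 controls. Restriction 33 and 35 and control 23 were high in set 2, and restriction 12, 13 and 15 and control 3 in set 1. High and low libraries thus occurred under both diets in set 2. The diet value in set 2 hung on single libraries. It was 0.16 with all of them, 0.58 without control 23 and -0.04 without restriction 33, none called.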

How the data were processed

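RNA was taken from muscle with Trizol and made into libraries with a TruSeq RNA kit, per the labels' protocols, a kit that does not mark strand, so antisense reads are not told apart. The submitters' processing notes name Trimmomatic, HISAT2, featureCounts and DESeq2 and the build Rnor_6.0, with no versions or order. The authors deposited raw counts per gene, which were used as they stand. A second deposited table, of normalized counts, was not used.

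From the counts, filterByExpr over the 4 groups kept 14225 of 24648 rows, TMM scaled the libraries, and a model with a mean for each group was fitted to all 12 libraries together (edgeR 4.0.16, R 4.3.3). Quasi-likelihood tests were adjusted by Benjamini-Hochberg over all rows tested, with a threshold of 0.05. Log2 fold changes are set 2 over set 1 or restriction over control, with SE and 95% intervals, and CPM are scaled by TMM. The code was tried on counts simulated from means and spreads estimated on these data. That cannot show how well the model suits the real libraries. Libraries within a group differed by more than sampling noise in all 12 pairs (chi-square per degree of freedom 24.5 to 146.6).

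The members, the companion and marker lists and the tests were chosen with earlier results of these data known. Named were all 8 members, Myh4 and Myh7, the genes most like Dmd and Utrn, and of each companion list up to 4 called genes with the smallest p. The remaining subunits were named beyond that rule, and 3 companion genes are not reported here. Lamb2 in the diet comparison, the genes most like Sspn and the ratios to Dmd were chosen after their values were seen. Older symbols were matched through the RefSeq gene table. Alternatives were DESeq2 1.42.0, DESeq2 size factors, library size alone, no filter, a mean CPM of at least 1, the libraries of 1 set, a replicate block (limma 3.58.1 with a random effect for the diet) and leaving out each library. The set comparison within each diet was added after the data were seen.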

Additional observations from a re-analysis of the deposited data

How the results depend on the processing

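The calls on Sgcb and Dtna between the sets held under every alternative run, and 2 or 3 of the 8 members were called in each. The third was Utrn with DESeq2, with no filter on low counts (adjusted p = 0.046), in restriction libraries alone, or without control 23 or restriction 32, and Sgca under the replicate block or without control 3 or control 29. The cause was not tested. For the diet, 0 members were called under every alternative. Library size alone moved the median of all genes between the sets by -0.11 on the log2 scale, with Sgcb at 0.63 and Dtna at -0.99. EdgeR called 1 gene for the mean diet effect and DESeq2 55, of 11455 with an adjusted p.

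Values near 0 changed sign, none of them called. For Sgcb and the diet in set 2 (-0.0022) the value was 0.0041 with DESeq2, 0.0039 with its size factors, 0.10 with library size alone and 0.0037 under the CPM filter, and its difference between sets was 0.088 with library size alone. Dag1 and the mean diet effect stood at 0.030 with library size alone. Dmd between the sets stood at 0.00079 with no filter. In restriction libraries alone the set difference was 0.22 for Dmd and 0.015 for Dag1, and in controls alone -0.12 for Sgcd and 0.033 for Sspn. In the restriction libraries alone Sgce (-0.56) and Lamb2 (-0.27) were not called between the sets, nor in controls alone Sgce (-0.66), Drp2 (1.07) and Cav3 (-0.39).

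Leaving out 1 library gave these ranges where a sign changed. The mean diet effect ran from -0.064 to 0.061 for Dag1, -0.035 to 0.15 for Dmd, -0.037 to 0.089 for Dtna, -0.045 to 0.093 for Sgca, -0.024 to 0.033 for Sgcb and -0.054 to 0.23 for Sgcd. In set 2 it ran from -0.019 to 0.23 for Dtna, -0.057 to 0.054 for Sgcb and -0.037 to 0.58 for Sspn, and in set 1 from -0.13 to 0.016 for Dtna, -0.024 to 0.060 for Sgcb and -0.41 to 0.038 for Sgcd. The difference between the sets in it ran from -0.065 to 0.043 for Sgcb and -0.46 to 0.24 for Sspn. Between the sets, Dmd ran from -0.11 to 0.061 and Sspn from -0.26 to 0.11. The log2 ratio to Dmd ran from -0.33 to 0.11 for Sspn between the sets, and for the diet from -0.15 to 0.0097 for Dag1, -0.15 to 0.064 for Dtna, -0.17 to 0.13 for Sgca, -0.18 to 0.054 for Sgcb and -0.15 to 0.17 for Sgcd.

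Numbers that differ by 20 between the sets were tried as pairs. Deviations from group means correlated at 0.079 to 0.18 over genes, above 0.1 in 4 of 6 pairs, and 5 of 6 set 1 libraries correlated best with the set 2 library of their own number, which is a hint from the data and not the design. With the replicate block 3 members were called between the sets (Sgcb at 0.73, Dtna at -0.88 and Sgca at 0.28, edgeR adjusted p = 0.040), and 5802 genes in place of 5620. As a random effect in limma-voom it left 0 members called for the diet.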

Other observations

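Genes listed for membrane repair and for new fibres, both close to the work of the dystrophin complex, were mostly lower in set 2. Macrophage and fibro-adipogenic progenitor markers were lower there too, and fibre-type markers differed. Whether the values below reflect repair, new fibres, other cells or fibre type was not tested. Of 10 tested repair genes 2 were higher and 7 lower between the sets (median -0.56). Anxa1 and Anxa2, annexins that gather at membrane wounds, were at -1.37 ± 0.17 and -1.18 ± 0.17 on the log2 scale (SE) and Trim72, which starts the repair patch, at -0.96 ± 0.14, whereas Ano5, an anoctamin mutated in a limb-girdle dystrophy, was at 0.97 ± 0.17. Of 7 tested genes of regeneration and new fibres 1 was higher and 5 were lower (median -2.14), with Myog at -2.20 ± 0.16, Ncam1 at -2.17 ± 0.16 and Myh3, the embryonic myosin heavy chain, at -2.14 ± 0.23, and with Myod1 at 2.77 ± 0.34. Each is at an edgeR adjusted p below the threshold, and 39.5% of all genes were. For the mean diet effect 0 genes of either list were called.

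By deviations of log2 CPM from the group means over the 12 libraries, the genes most like Dmd among 11181 were Crebzf (Pearson's r = 0.93), Mlxip (r = 0.93) and Zbtb11 (r = 0.92). Those most like Utrn were Ccnt2 (r = 0.97), Ubr2 (r = 0.97) and Ncor1 (r = 0.96). For Sspn they were Cnst (r = 0.98), Ptpn3 (r = 0.97) and Angptl2 (r = 0.97). Ptpn3 measured 49.0, 248 and 188 CPM in set 2 restriction libraries and 174, 50.8 and 51.5 CPM in set 2 controls, against 105, 188 and 175 CPM in set 1 restriction libraries and 221, 90.1 and 84.4 CPM in set 1 controls, which are high in most of the libraries where Sspn is high, with restriction 12 lower than the other 2 of its group. These correlations are the highest of many, share the libraries and their depth, and are given as a description.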
